A study of Mus musculus with 4 samples.

Results

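The genes described here were 10 CCL and CXCL chemokines, secreted proteins that attract leukocytes and other cells: Ccl2, Ccl7, Ccl8, Ccl11 and Ccl20, and Cxcl1, Cxcl5, Cxcl12, Cxcl14 and Cxcl16. They were chosen by name, and every probe set annotated to exactly 1 of them was taken, which gave 16 of the 34945 probe sets and 10 of the 18193 genes that the arrays name singly. Expression was measured in untreated primary dermal fibroblasts of Adam9 knockout mice (adam9 -/-, 2 isolations) and of wild-type mice (adam9 +/+, 2 isolations), all isolated from skin at postnatal day 1 and kept in culture for 48 h. Each isolation was measured on 1 array. Adam9 encodes a metalloprotease anchored in the membrane, which releases or trims other surface proteins, and the comparison addressed constitutive gene differences in its absence. The labels do not give the strain, the deleted part of the gene or the number of animals behind an isolation, so p-values measure only the spread between these isolations.

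Chemokines are small secreted proteins that guide migrating cells through G protein-coupled receptors and are held on heparan sulfate at cell surfaces and in the matrix. In the CC class the first conserved cysteines are adjacent, and in the CXC class a residue separates them. Dermal fibroblasts make some of them constitutively, such as CXCL12, and others after inflammatory signals that act through NF-kB, such as CCL2 and CXCL1. CXCL16 is unusual in being made as a transmembrane protein that the proteases ADAM10 and ADAM17 release.

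Promoter stretches are given for Cxcl1, Ccl8 and Cxcl14, because each of these genes had a wide gap between isolations of the same genotype. RefSeq's promoter table (GRCm38.p6) held an entry for 5 of the 10 genes. The stretches are the 250 bases before the annotated start, read 5′ to 3′ on the strand of the gene: chr5:90890995-90891244 (plus strand) for Cxcl1, chr11:82114935-82115184 (plus strand) for Ccl8 and chr13:56296552-56296801 (minus strand) for Cxcl14. Capitals mark matches on either strand to the NF-kB motif (GGG, any 3 bases, TTCC), the AP-1 motif TGANTCA, the TATA motif TATAAA or the interferon response motif (GAAA, any 2 bases, GAAA).
Cxcl1: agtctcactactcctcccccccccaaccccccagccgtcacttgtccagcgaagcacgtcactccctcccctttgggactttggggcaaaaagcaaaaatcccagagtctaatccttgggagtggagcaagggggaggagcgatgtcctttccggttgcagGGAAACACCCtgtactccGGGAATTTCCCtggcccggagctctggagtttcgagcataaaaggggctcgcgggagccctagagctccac
Ccl8: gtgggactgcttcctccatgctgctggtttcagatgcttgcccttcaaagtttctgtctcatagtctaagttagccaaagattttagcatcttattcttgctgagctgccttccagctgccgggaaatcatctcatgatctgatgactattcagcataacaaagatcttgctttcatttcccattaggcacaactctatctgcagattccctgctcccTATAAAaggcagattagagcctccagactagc
Cxcl14: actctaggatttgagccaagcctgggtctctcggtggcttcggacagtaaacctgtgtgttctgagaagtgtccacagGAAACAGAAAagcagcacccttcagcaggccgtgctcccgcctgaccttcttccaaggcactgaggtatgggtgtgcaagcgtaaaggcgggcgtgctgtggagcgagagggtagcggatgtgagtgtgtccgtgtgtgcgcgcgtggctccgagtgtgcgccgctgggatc
The Cxcl1 stretch held 3 matches to the NF-kB motif. A pair of them are the same near-palindrome read on both strands, at 62 to 71 and 61 to 70 bases before the start, and the other lies at 80 to 89. Of 32851 promoter stretches of the same length, 4.65% held this motif. Ccl20 also held 1 match to it, and Ccl8, Cxcl12 and Cxcl14 held none. The Ccl8 stretch held the TATA motif, as did 12.4% of all stretches, and the Cxcl14 stretch the interferon response motif, as did 2.98%. The AP-1 motif, present in 6.75% of stretches, was in none of the 5. These matches describe the letters only.

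The arrays carried their labels' main difference. Adam9, on chromosome 8, read 8.33 and 8.55 for the knockout arrays, against 11.58 and 11.70 for the wild-type arrays, as log2 values (log2 difference -3.20, SE 0.147, limma adjusted p = 0.0242). The difference lay between -3.31 and -3.08 when any 1 array was left out and was -3.20 with a replicate block. The adjusted p was then 0.126 to 0.244 and 0.104, in settings where 0 and 2 of all genes passed. No label says whether its probe set lies in the deleted part. The knockout and wild-type arrays also differed in Xist and 3 Y-linked genes, all 4 called. Xist read 10.38 and 10.40 for the knockout arrays, against 4.29 and 4.32 for the wild-type arrays. Y-linked Eif2s3y read 2.75 and 2.67 for the knockout arrays, against 9.19 and 9.31 for the wild-type arrays. Kdm5d and Uty, also Y-linked, were lower in the knockout too. Genotype therefore cannot be told apart from the sex that these genes mark, in any comparison made here. All 14 fibroblast markers listed were above the filter on dim probe sets, as were all 10 pericyte and smooth muscle markers, 17 of 22 macrophage and leukocyte markers, 5 of 12 keratinocyte and 5 of 10 endothelial markers. Of the pericyte and smooth muscle markers, 8 were lower in the knockout without overlap, against 22.0% of all genes, and 2 were higher, against 23.0%. Among them 0 were called, against 0.0678% of all genes (median log2 difference -0.55). Of the 5 keratinocyte markers tested, 2 were lower and 1 higher without overlap, with log2 differences from -3.84 to 0.39. Of the 5 endothelial markers tested, 2 were lower and 3 higher without overlap, from -0.25 to 0.66. In each of these lists 0 were called. The 3′ minus 5′ difference of the beta-actin control probe sets was 0.147 and 0.198 log2 units for the knockout arrays, against 0.218 and 0.149 for the wild-type arrays.

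None of the chemokine genes was called changed. Of the 9 that passed the filter on dim probe sets and were tested, 0 had a limma adjusted p under 0.05, where 0.0678% of all 13271 genes tested did (0.0151% higher and 0.0527% lower in the knockout). Ccl7 alone had an unadjusted p under 0.05, against 11.4% of all genes. The genotypes did not overlap for Ccl7 and Ccl8 on the lower side of the knockout, where 22.0% of all genes lay. Nor did they for Cxcl1 on the higher side, where 23.0% lay. For Cxcl1 this was a near tie, with 7.1569 in knockout isolation 2 and 7.1562 in wild-type isolation 1. Counted so, 3 of 9 had no overlap, against 45.0% of all genes. The knockout mean was above the wild-type mean for 5 of the 9, against 50.5% of all genes. The median log2 difference was 0.05, and 0.0027 over all genes tested. Only for Ccl7 among the 9 was the genotype difference larger than the gap between isolations within both genotypes, which held for 30.8% of all genes. In the fit on all 34945 probe sets, 0 of the 16 chemokine probe sets had an adjusted p under 0.05, where 0.0286% of all did, and 1 had an unadjusted p under 0.05, against 9.65%. Without overlap, 3 of the 16 were higher in the knockout, against 20.1% of all probe sets, and 2 were lower, against 20.9%. For several genes, a single isolation stood away from the rest, as the plot of every probe set by array shows.

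**Figure D1:**
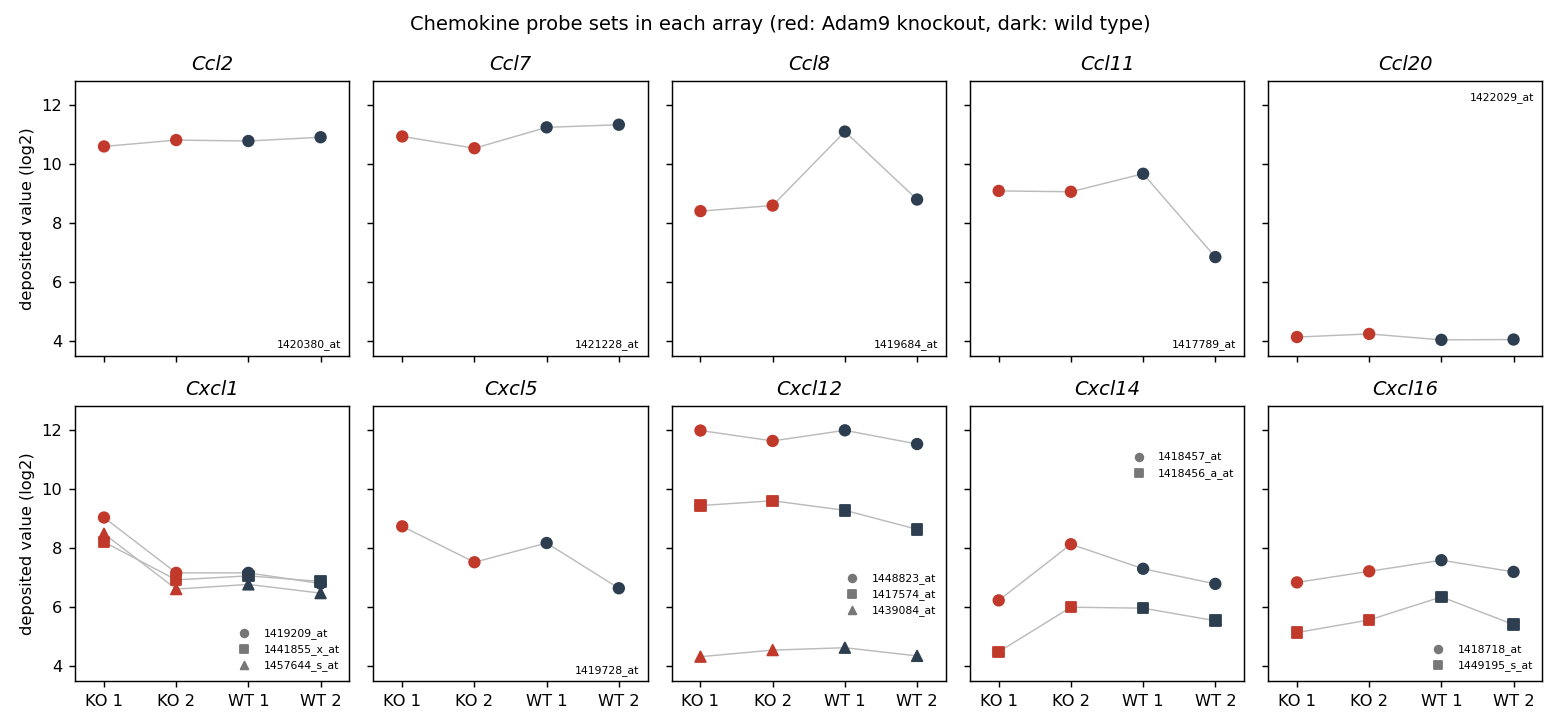
Deposited log2 values (vertical axis) of the 16 chemokine probe sets in each array, with knockout isolations (KO 1, KO 2) in red and wild-type isolations (WT 1, WT 2) in a dark shade, and grey lines joining values of the same probe set. Ccl2 lies within 10.59 to 10.90 in the 4 arrays, while Ccl8 is high in WT 1, Ccl11 is low in WT 2 and Cxcl1 is high in KO 1.

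Of the monocyte attractants, Ccl2 (Entrez 20296, chromosome 11), the principal ligand of the receptor CCR2, showed log2 values of 10.59 and 10.80 for the knockout isolations, against 10.77 and 10.90 for the wild-type isolations. The groups overlapped and all 4 arrays lay close together. Its log2 difference was -0.14 (SE 0.147, 95% interval -0.53 to 0.25, limma adjusted p = 0.743), the narrowest interval of the 9 genes.

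Ccl7 (Entrez 20306), another CCR2 ligand and the neighbour of Ccl2 on chromosome 11, had values of 10.92 and 10.53 for the knockout isolations, against 11.23 and 11.32 for the wild-type isolations. Both knockout values were below both wild-type values. Ccl7 averaged 10.72 ± 0.282 in the knockout, against 11.28 ± 0.0629 in the wild type (SD, n = 2 each), which is 1.47-fold lower in the knockout. The log2 difference was -0.55 (SE 0.183, 95% interval -1.04 to -0.06). Over all genes it did not pass (limma adjusted p = 0.408; 0.192 to 0.929 over the alternatives). It stayed negative without any 1 array, between -0.75 and -0.35.

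Ccl8 (Entrez 20307), which in mice acts through CCR8, had values of 8.40 and 8.59 for the knockout isolations, against 11.09 and 8.79 for the wild-type isolations. Wild-type isolation 1 was high and the other 3 arrays were alike. The means were 8.49 ± 0.134 in the knockout, against 9.94 ± 1.63 in the wild type (SD, n = 2 each). The log2 difference was -1.45, or 2.73-fold lower (SE 0.789, limma adjusted p = 0.545), and without wild-type isolation 1 it was -0.30. The gap between the wild-type isolations, 2.30 log2 units, was larger than that of 99.6% of all genes tested.

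Macrophage and leukocyte markers were high in the same array. Of 22 listed, 17 were above the filter. In wild-type isolation 1, 15 of these stood by over 1 log2 unit above each of the other arrays. Of all 13271 genes tested, 68 did so. The filter used the mean over all 4 arrays, and some markers passed it only through wild-type isolation 1. The count of 15 therefore follows in part from that selection. The median of the 17 was 4.40 and 4.28 for the knockout arrays, against 8.55 and 4.58 for wild-type isolations 1 and 2. Their summed level, in antilog units with 1 probe set per gene, was 683 and 559 in the knockout arrays, against 12698 and 762 in the wild-type arrays. Adgre1, the macrophage surface marker F4/80, had values of 4.45 in both knockout arrays, against 7.05 and 4.35 in the wild-type arrays. Adgre1 was named after its values were seen. No marker was listed at 0. The part of these cells in the Ccl8 values was not tested, and in cultured cells fewer cells of a type and less RNA per cell cannot be told apart.

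Ccl11 (Entrez 20292), or eotaxin, which attracts eosinophils through CCR3, had values of 9.08 and 9.05 for the knockout isolations, against 9.66 and 6.84 for the wild-type isolations. The knockout arrays were nearly equal and lay between the wild-type arrays, so the groups overlapped. The log2 difference of 0.81 (SE 0.960, 95% interval -1.76 to 3.39, limma adjusted p = 0.771) turned to -0.59 without wild-type isolation 2 and was 2.22 without wild-type isolation 1. The wild-type gap of 2.82 log2 units was larger than that of 99.8% of genes, while the knockout gap of 0.0290 was larger than that of 8.58%. Of the 14 fibroblast markers, 11 were lowest in wild-type isolation 2, with a median over all 14 of 12.28 and 12.38 for the knockout arrays, against 12.35 and 11.54 for wild-type isolations 1 and 2. Their summed antilog level was 106670 and 103680 in the knockout arrays and 106320 and 78730 in the wild-type arrays. Their part in the Ccl11 values was not tested.

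Ccl2, Ccl7, Ccl11, Ccl12 and Ccl8 follow each other in this order on chromosome 11 among protein-coding genes of the RefSeq table. Among them, the array that stood apart was wild-type isolation 1 for Ccl8 and wild-type isolation 2 for Ccl11. Ccl12, which lies between Ccl11 and Ccl8, was below the filter, at 2.72 and 2.30 for the knockout arrays, against 3.79 and 2.55 for the wild-type arrays. Ccl12 was named after its values were seen.

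Ccl20 (Entrez 20297, chromosome 1), the CCR6 ligand of barrier tissues, was the 1 gene below the filter of 4.17 on the mean log2 value. Its values were 4.14 and 4.24 for the knockout isolations, against 4.04 and 4.05 for the wild-type isolations. In the fit on all 34945 probe sets without a filter, its difference was 0.14 (SE 0.121, limma adjusted p = 0.743). No detection calls were used here, so expression of Ccl20 above background cannot be judged.

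The neutrophil attractants Cxcl1 and Cxcl5, which act on CXCR2, were highest in knockout isolation 1. Cxcl1 (Entrez 14825, chromosome 5) had values of 9.03 and 7.16 for the knockout isolations, against 7.16 and 6.80 for the wild-type isolations. Knockout isolation 1 stood apart, and knockout isolation 2 was level with wild-type isolation 1. Its means were 8.09 ± 1.32 in the knockout, against 6.98 ± 0.255 in the wild type (SD, n = 2 each), a log2 difference of 1.12, or 2.17-fold (SE 0.656, limma adjusted p = 0.566). Without knockout isolation 1 the difference was 0.18.

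The other probe sets of Cxcl1 showed the same array standing apart. Probe set 1457644_s_at had values of 8.48 and 6.61 for the knockout isolations, against 6.77 and 6.47 for the wild-type isolations. Probe set 1441855_x_at had 8.20 and 6.92 for the knockout isolations, against 7.06 and 6.87 for the wild-type isolations. Their log2 differences of 0.93 and 0.60 had limma adjusted p of 0.684 and 0.702 over all probe sets, and the groups overlapped in both. All 3 were measured on the same arrays and are not replicates of each other. The gap between the knockout isolations for the first probe set, 1.87 log2 units, was larger than that of 99.5% of genes.

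Cxcl5 (Entrez 20311, chromosome 5) had values of 8.73 and 7.52 for the knockout isolations, against 8.17 and 6.64 for the wild-type isolations. In each genotype isolation 1 was higher than isolation 2, and the groups overlapped. The log2 difference was 0.72 (SE 0.671, 95% interval -1.08 to 2.52, limma adjusted p = 0.712). It was -0.043 without wild-type isolation 2 and 0.11 without knockout isolation 1.

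Cxcl5, Ppbp, Pf4, Cxcl3, Cxcl15 and Cxcl1 are consecutive protein-coding genes on chromosome 5. Cxcl3, a further CXCR2 ligand, was below the filter, at 4.11 and 2.70 for the knockout arrays, against 2.94 and 2.70 for the wild-type arrays, and was highest where Cxcl1 was. Cxcl2, also a CXCR2 ligand and below the filter, was instead highest in wild-type isolation 1, at 3.54 and 3.07 for the knockout arrays, against 4.59 and 3.17 for the wild-type arrays. Ppbp, whose values follow with the remaining chemokines, was lowest in knockout isolation 1. Icam1, an adhesion molecule and NF-kB target, had values of 8.34 and 6.50 for the knockout arrays, against 7.07 and 6.05 for the wild-type arrays, and was likewise highest in knockout isolation 1. The other NF-kB targets did not all follow this order. Of the 17 tested, 6 were highest and 5 lowest in knockout isolation 1, with Vcam1, another adhesion molecule, at 10.06 and 10.31 for the knockout arrays, against 10.32 and 10.62 for the wild-type arrays. Cxcl2, Cxcl3, Icam1 and Vcam1 were named after their values were seen.

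Among the constitutively made CXC chemokines, Cxcl12 (Entrez 20315, chromosome 6), the ligand of CXCR4 and of the scavenging receptor ACKR3, was level in its brightest probe set. Values of 1448823_at were 11.97 and 11.62 for the knockout isolations, against 11.98 and 11.52 for the wild-type isolations. The groups overlapped, and the log2 difference was 0.05 (SE 0.231, 95% interval -0.57 to 0.67, limma adjusted p = 0.955). Probe set 1417574_at had values of 9.43 and 9.60 for the knockout isolations, against 9.27 and 8.63 for the wild-type isolations. There both knockout values were higher, and wild-type isolation 2 was the lowest array (log2 difference 0.56, SE 0.247, limma adjusted p = 0.562 over all probe sets). Probe set 1439084_at was dim, at 4.32 and 4.54 for the knockout isolations, against 4.62 and 4.35 for the wild-type isolations. The probe sets thus disagreed on the size of the difference, and none passed.

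Cxcl14 (Entrez 57266, chromosome 13), a chemokine of normal skin whose receptor is debated, was lowest in knockout isolation 1 and highest in knockout isolation 2. Probe set 1418457_at had values of 6.23 and 8.13 for the knockout isolations, against 7.30 and 6.78 for the wild-type isolations, so the wild-type values lay between the knockout values. Probe set 1418456_a_at had 4.48 and 5.99 for the knockout isolations, against 5.96 and 5.54 for the wild-type isolations. The log2 differences were 0.14 (SE 0.676, limma adjusted p = 0.957 over all genes) in the first and -0.51 (SE 0.528, limma adjusted p = 0.789 over all probe sets) in the second. The knockout gap of -1.90 log2 units (isolation 1 minus isolation 2) in the first probe set was larger in size than that of 99.6% of genes.

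Cxcl16 (Entrez 66102, chromosome 11), the transmembrane ligand of CXCR6, had values of 6.83 and 7.21 for the knockout isolations, against 7.59 and 7.19 for the wild-type isolations. The groups overlapped only through knockout isolation 2, which exceeded wild-type isolation 2. Probe set 1449195_s_at had 5.14 and 5.56 for the knockout isolations, against 6.34 and 5.41 for the wild-type isolations. Both probe sets were highest in wild-type isolation 1, the array in which the macrophage markers were high. The part of those cells in the Cxcl16 values was not tested. The log2 difference was -0.37 (SE 0.220, 95% interval -0.96 to 0.22, limma adjusted p = 0.572), and -0.17 without wild-type isolation 1.

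**Figure D2:**
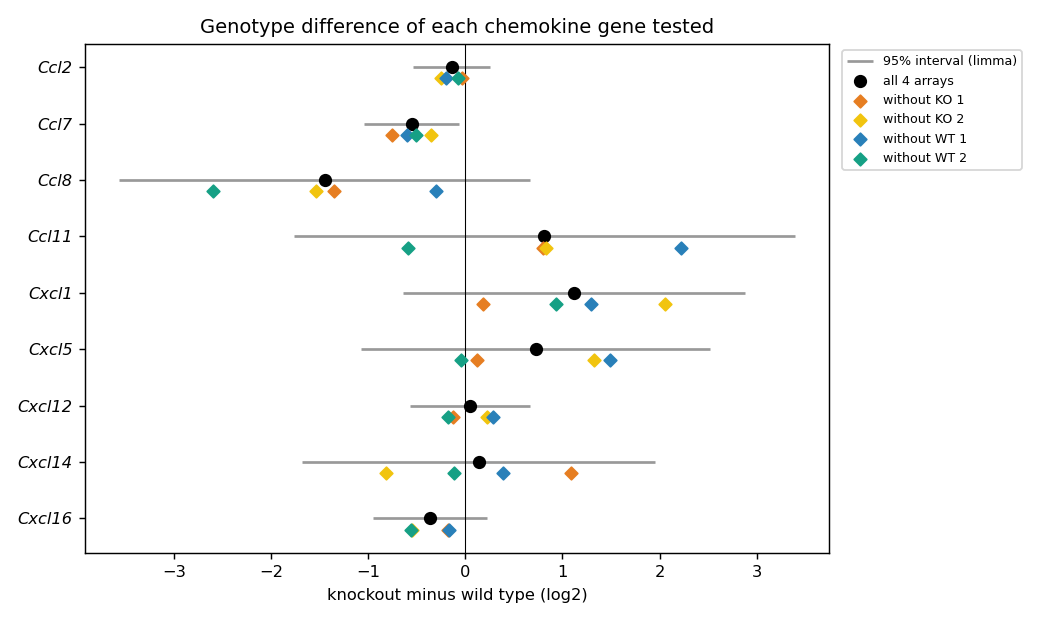
Log2 difference, knockout minus wild type (horizontal axis), of the 9 chemokine genes tested, with black points for all 4 arrays, grey lines for the 95% limma intervals and coloured diamonds for the difference without the array named in the legend. The Ccl7 points all lie below 0, between -0.75 and -0.35, while those of Ccl11 run from -0.59 to 2.22.

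**Figure D3:**
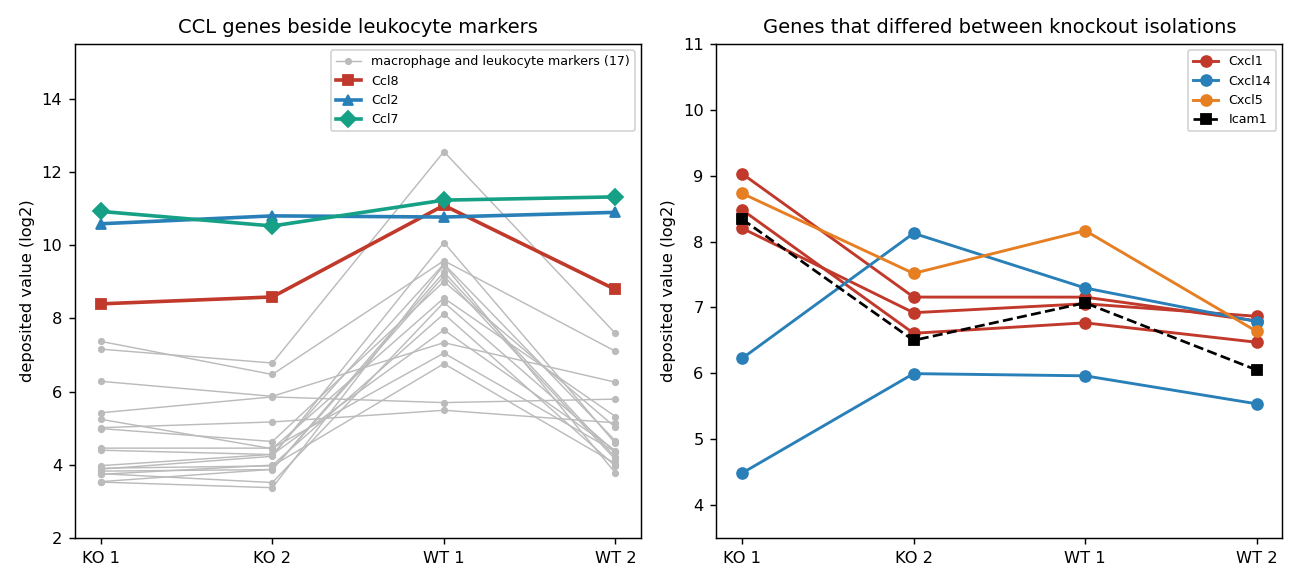
Deposited log2 values (vertical axis) by array, with lines joining values of the same probe set. On the left, Ccl8 stands at 11.09 in WT 1, where most of the 17 leukocyte markers (grey) are also high, and Ccl2 and Ccl7 stay near their values in the other arrays; on the right, Cxcl1, Cxcl5 and Icam1 are highest in KO 1, and Cxcl14 is lowest in KO 1 and highest in KO 2.

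The plot of single arrays sets these groups side by side. In wild-type isolation 1 the Ccl8 value was 2.50 log2 units above the mean of the other 3 arrays, while Ccl2 was 0.0080 above it and Ccl7 0.309. In knockout isolation 1 Cxcl1 was 1.99 and Cxcl5 1.29 above the mean of the other arrays, while Cxcl14 (probe set 1418457_at) differed from it by -1.18. In knockout isolation 2 the same Cxcl14 probe set lay 1.36 above the mean of the other arrays. Both knockout isolations were thus far out in it, in opposite directions. In probe set 1418456_a_at knockout isolation 1 differed by -1.35 and knockout isolation 2 by 0.67. There knockout isolation 2, at 5.99, was close to wild-type isolation 1, at 5.96. In wild-type isolation 2 Ccl11 differed from the mean of the others by -2.42. Cxcl5, Cxcl1 in each of its probe sets, and Cxcl12 in probe sets 1448823_at and 1417574_at were also lowest there.

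The remaining chemokines gave no called gene. Of 28 listed, 25 had a probe set naming them alone and 16 passed the filter. Of these 0 were called higher and 0 lower, where 0.0678% of all genes were called. An unadjusted limma p under 0.05 was found for 3, against 11.4% of all genes. Differences were positive for 5, against 50.5% of all genes, and negative for 11, with a median log2 difference of -0.02. Ccl9, a CCR1 ligand, had the largest difference in size, with 5.50 and 5.44 for the knockout arrays, against 6.87 and 5.72 for the wild-type arrays. It was -0.83 (SE 0.407, limma adjusted p = 0.520), and -0.26 without wild-type isolation 1, the array high in macrophage markers. The part of macrophages in the Ccl9 values was not tested. Ppbp, the platelet chemokine CXCL7, stood at 5.43 and 5.54 for the knockout arrays, against 6.10 and 6.20 for the wild-type arrays (log2 difference -0.67, SE 0.130, limma adjusted p = 0.260).

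Most receptors of these ligands were dim. Of 23 receptor genes listed, 21 had a probe set and 8 passed the filter. Ccr1, Ccr3, Ccr6, Ccr8, Cxcr2, Cxcr4 and Cxcr6 did not pass it. Cxcr2, the receptor of CXCL1 and CXCL5, had 3.22 and 3.37 for the knockout arrays, against 3.19 and 3.24 for the wild-type arrays. Ccr2, the receptor of CCL2 and CCL7, had 4.77 and 5.06 for the knockout arrays, against 5.08 and 5.02 for the wild-type arrays (log2 difference -0.14, SE 0.157, limma adjusted p = 0.768). Cxcr4 stood at 2.77 and 2.69 for the knockout arrays, against 4.28 and 2.76 for the wild-type arrays, so wild-type isolation 1 alone was high. Cx3cr1, the fractalkine receptor of mononuclear phagocytes, was also highest there, with 4.16 and 4.31 for the knockout arrays, against 5.66 and 4.34 for the wild-type arrays (log2 difference -0.76, SE 0.463, limma adjusted p = 0.575; -0.10 without that array). With the mean over its probe sets Cx3cr1 differed by -0.40.

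Ackr3, the scavenging receptor that removes CXCL12, was the pathway gene with the clearest separation of genotypes. Its single probe set, 1417625_s_at, showed log2 values of 7.61 and 7.75 for the knockout isolations, against 9.32 and 9.22 for the wild-type isolations. Isolations of the same genotype were close and the groups lay far apart. The means were 7.68 ± 0.0994 in the knockout, against 9.27 ± 0.0678 in the wild type (SD, n = 2 each), a log2 difference of -1.59 (SE 0.133, 95% interval -1.95 to -1.24). It did not pass over all genes (limma adjusted p = 0.0703; 0.0654 to 0.417 over the alternatives). The difference stayed between -1.66 and -1.52 when any 1 array was left out. Cxcl12 itself differed between the same arrays by 0.05 in the probe set 1448823_at, by 0.56 in 1417574_at and by -0.05 in the dim 1439084_at.

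Genes that drive or accompany chemokine expression had 0 called members in the lists of signalling genes, NF-kB targets, proteases and heparan sulfate genes, at a share over all genes of 0.0678%, which is under 1 gene in lists of this size. Of 24 genes of IL-1, TNF, Toll-like receptor and NF-kB signalling, 18 were tested, 9 with positive and 9 with negative differences and a median of -0.02. Il1r1, the signalling receptor of IL-1, had 9.10 and 8.94 for the knockout arrays, against 8.34 and 7.41 for the wild-type arrays. In its brightest probe set both knockout values were higher, by 1.15 log2 units on average (SE 0.342, limma adjusted p = 0.384). Without wild-type isolation 2 the difference was 0.68. Averaging all Il1r1 probe sets gave a smaller log2 difference, 0.54, so the size depended on the probe set chosen. Ikbkg, the regulatory subunit of the IkB kinase, is on the X chromosome and stood at 8.77 and 8.19 for the knockout arrays, against 8.80 and 9.29 for the wild-type arrays (log2 difference -0.56, SE 0.283, limma adjusted p = 0.523).

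Of 20 NF-kB target genes outside the chemokines, 17 were tested, with 7 positive and 10 negative differences and a median of -0.09. Ptgs2, the inducible cyclooxygenase, had 7.99 and 7.77 for the knockout arrays, against 9.27 and 11.17 for the wild-type arrays. Both knockout values were lower, but the wild-type arrays were far apart (log2 difference -2.34, SE 0.658, limma adjusted p = 0.363; -1.39 without wild-type isolation 2). Nfkbiz, a nuclear IkB protein that promotes some inflammatory genes, had 7.88 and 8.37 for the knockout arrays, against 8.88 and 9.16 for the wild-type arrays (log2 difference -0.90, SE 0.225, limma adjusted p = 0.325).

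Among 14 proteases that release or trim chemokines, 10 were tested, with a median of -0.13. Adam8, a leukocyte metalloprotease, had 5.32 and 5.05 for the knockout arrays, against 8.03 and 5.66 for the wild-type arrays. Only wild-type isolation 1 was high (log2 difference -1.66, SE 0.816, limma adjusted p = 0.520; -0.47 without that array). Dpp4, which clips the start of CXCL12 and CCL11, had 6.01 and 4.95 for the knockout arrays, against 4.97 and 3.89 for the wild-type arrays (log2 difference 1.05, SE 0.525, limma adjusted p = 0.523). Adam10, one of the proteases that release CXCL16, differed by -0.23 (SE 0.150, limma adjusted p = 0.592), and Adam17, the other, by 0.04 (SE 0.154, limma adjusted p = 0.945). Adam10 and Adam17 were named after their values were seen.

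Of 13 genes that make or modify heparan sulfate, 12 were tested, 9 of them with negative differences and a median of -0.10. Hs3st1, a sulfotransferase, had 8.36 and 8.26 for the knockout arrays, against 8.07 and 6.51 for the wild-type arrays (log2 difference 1.02, SE 0.539, limma adjusted p = 0.537; 0.25 without wild-type isolation 2). Sulf1, an extracellular sulfatase, had 10.13 and 10.34 for the knockout arrays, against 10.63 and 10.59 for the wild-type arrays (log2 difference -0.38, SE 0.139, limma adjusted p = 0.436).

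**Figure D4:**
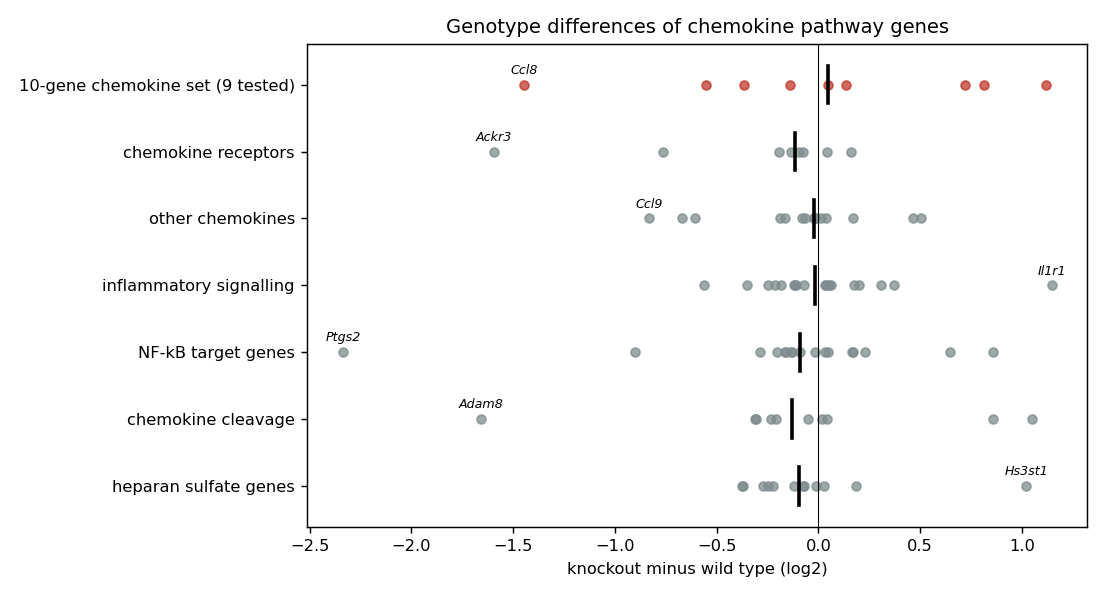
Log2 difference, knockout minus wild type (horizontal axis), of each tested gene in the chemokine set (red) and in 6 related lists (grey), with a black bar at each median and the gene of largest size named. Medians lie between -0.13 and 0.05, and Ackr3 stands at -1.59 and Ptgs2 at -2.34.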

How the data were processed

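Per the submitters' processing notes, the authors made the probe set values with Affymetrix Expression Console. These deposited values were read as log2 from their range (1.70 to 14.4). No source used here gives the log base, software version or algorithm. If the base was not 2, fold values would change. Probe sets were named from the platform annotation, and 34754 were matched by Entrez identifier to RefSeq (GRCm38.p6), whose names were then used. Each gene was represented by its brightest probe set, and genes above the 40th percentile of non-control probe sets (log2 4.17) were tested with limma 3.58.1 in R 4.3.3 (lmFit, eBayes, 2 residual and 2.38 prior degrees of freedom, Benjamini-Hochberg over 13271 genes, called at 0.05). All 34945 single-gene probe sets were tested likewise without a filter. SE and 95% intervals are limma's. Named were the 10 chemokines, Adam9, their receptors and, per list, genes called or else the 2 of largest difference. Members and lists were chosen with earlier results of these data known. The procedure was tested on simulated data. The number of arrays limits the precision. Alternatives were a block, filters, normalizations, a variance trend, array weights, other probe set choices and leaving out arrays. The array weights were 0.775 for both knockout arrays and 1.29 for both wild-type arrays. That setting therefore could not weigh 1 isolation below the other of its genotype, and it left the log2 differences unchanged.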

Additional observations from a re-analysis of the deposited data

How the results depend on the processing

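Under all 14 alternatives 0 of the chemokine genes passed limma's adjusted threshold, with 1 or 2 at an unadjusted p under 0.05. The count of called genes was 9. With the isolation number as a replicate block it was 2, and with any 1 array left out it was 0 (714 to 2281 genes at an unadjusted p under 0.05). The count of called probe sets was 10, and it was 0 with the block (3247 at an unadjusted p under 0.05) and 0 with any 1 array left out. Deviations of isolations with the same number correlated by 0.116 over 13271 genes, but the labels tie the numbers to nothing shared, so they were not taken as pairs.

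With the mean over its probe sets Cxcl14 differed by -0.19, as its probe sets have opposite signs. Leaving out 1 array at a time turned the sign of Ccl11 (-0.59 to 2.22), Cxcl5 and its probe set 1419728_at (-0.043 to 1.49), Cxcl12 (-0.18 to 0.28), Cxcl14 (-0.81 to 1.09) and Ccr2 (-0.28 to 0.011). It also turned that of probe sets 1441855_x_at (-0.040 to 1.24) and 1457644_s_at (-0.011 to 1.86) of Cxcl1, 1439084_at of Cxcl12 (-0.19 to 0.084) and 1418456_a_at of Cxcl14 (-1.26 to 0.25). The alternatives for genes outside the chemokine set were added after the data were seen.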

Other observations

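A few further chemokine and receptor genes below the filter stood apart in 1 array, all chosen after their values were seen. Pf4, the platelet chemokine CXCL4, showed log2 values of 3.58 and 3.33 for the knockout arrays, against 5.59 and 3.15 for wild-type isolations 1 and 2. Ccl6, a chemokine of myeloid cells in mice, had 3.11 and 3.46 for the knockout arrays, against 5.72 and 3.57 for the wild-type arrays in probe set 1417266_at. Both were thus highest in wild-type isolation 1, where the macrophage markers were high. The part of macrophages in the Pf4 and Ccl6 values was not tested. Cxcr6, the receptor of CXCL16, was instead highest in wild-type isolation 2, with 3.43 and 3.70 for the knockout arrays, against 3.43 and 5.15 for the wild-type arrays in probe set 1425832_a_at. Its other probe set, 1422812_at, had 2.21 and 2.18 for the knockout arrays, against 2.32 and 3.61 for the wild-type arrays.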
